A study of Homo sapiens with 6 samples.

Results

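The MAPK feedback genes are a group of 10 genes whose transcription follows the activity of ERK, the last kinase of the RAS-RAF-MEK-ERK cascade, and most of whose products hold that cascade back. They were taken by symbol from the gene expression table, and all 10 were found among its 46427 genes: DUSP4, DUSP5, and DUSP6, SPRY1, SPRY2, and SPRY4, SPRED1, ETV4 and ETV5, and PHLDA1. Each had reads in all 6 libraries and passed the filter on low counts.

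In this cascade, growth factor receptors load RAS with GTP, RAS activates RAF, RAF phosphorylates MEK, and MEK phosphorylates ERK. ERK then switches on, through ETS and AP-1 transcription factors, the genes of its own inhibitors. The DUSP phosphatases remove the phosphates from ERK, and the Sprouty and SPRED proteins act further up, near RAS and RAF. Because these transcripts are short-lived and track ERK output, their levels are widely used as a readout of the pathway in lung cancer cells.

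RNA-seq was performed on 1 control and 1 si-MALAT1 library of each of the human non-small cell lung cancer (NSCLC) cell lines H460, H1299, and A549, so 6 libraries in 3 pairs. MALAT1 is a long nuclear RNA, and si-MALAT1 is a small interfering RNA that was transiently transfected to deplete it. The labels give the control cells no treatment, while the methods describe both untreated cells and cells given a control siRNA, so the effect of transfection and that of the MALAT1 siRNA cannot be told apart. Each cell line has 1 library per condition, so its own fold changes carry no check against replicates, and a bulk library cannot tell less RNA in every cell from fewer cells that express the gene.

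The libraries held between 42506818 and 68515992 counted reads. MALAT1 (Gene ID 378938) had 231045 reads in the control and 43858 in the si-MALAT1 library of H460, 407551 and 47935 for H1299, and 93747 and 14447 for A549. On the log2 scale the si-MALAT1 libraries lay at -2.32, -2.96, and -2.84 against their controls. The paired edgeR test, which gave an adjusted p of 0.0381, treats the 3 cell lines as replicates. The epithelial keratins KRT8 and KRT18 had at least 11408 and 20233 reads in every library. KRT19 was high in H460 alone, with 33570 to 44567 reads against 17 to 121 elsewhere. In A549 the si-MALAT1 library had fewer keratin reads than its control, 56171 against 113159 of KRT8 and 68068 against 144327 of KRT18. EPCAM was low but higher after si-MALAT1 in each cell line, with 30 and 73 reads for H460, 23 and 43 for H1299, and 196 and 485 for A549. The leukocyte and T cell markers PTPRC and CD3E had 0 reads in every library, and the endothelial marker PECAM1 had 0 to 8. The fibroblast collagen gene COL1A1 was also higher after si-MALAT1 in each, with 175 and 472 reads for H460, 38 and 144 for H1299, and 267 and 469 for A549. The part of these markers in the results was not tested.

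Promoter sequences were looked up in RefSeq (GRCh38.p14) for the 10 genes, as windows from 250 bases before to 50 bases after the start of transcription. A window was found for 6 of them, 9 windows in all: DUSP6, SPRY1, SPRY2, SPRY4, SPRED1, and PHLDA1. No entry was found for DUSP4, DUSP5, ETV4, and ETV5. The 4 windows below belong to genes that were at least 1.5-fold lower in H460 after si-MALAT1, with 1 of the 3 windows of SPRY2. They lie at chr12:89352452-89352751 (DUSP6), chr13:80341077-80341376 (SPRY2), chr5:142324198-142324497 (SPRY4), and chr12:76031727-76032026 (PHLDA1), all on the minus strand. Capitals mark the ETS motif CCGGAA, a form of the element read by ETV4, ETV5, and their relatives. It was searched on both strands and is shown as its reverse complement where it lies on the opposite strand.
DUSP6: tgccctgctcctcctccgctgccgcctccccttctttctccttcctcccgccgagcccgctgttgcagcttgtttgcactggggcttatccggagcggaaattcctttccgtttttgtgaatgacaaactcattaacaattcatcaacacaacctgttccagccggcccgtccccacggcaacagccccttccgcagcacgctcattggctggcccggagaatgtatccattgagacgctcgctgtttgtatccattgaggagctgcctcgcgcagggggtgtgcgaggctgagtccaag
SPRY2: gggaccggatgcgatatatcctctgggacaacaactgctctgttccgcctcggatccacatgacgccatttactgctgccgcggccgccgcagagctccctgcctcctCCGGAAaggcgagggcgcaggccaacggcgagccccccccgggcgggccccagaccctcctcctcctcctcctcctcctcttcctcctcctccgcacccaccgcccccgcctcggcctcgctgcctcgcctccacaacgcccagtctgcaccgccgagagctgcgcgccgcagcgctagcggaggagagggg
SPRY4: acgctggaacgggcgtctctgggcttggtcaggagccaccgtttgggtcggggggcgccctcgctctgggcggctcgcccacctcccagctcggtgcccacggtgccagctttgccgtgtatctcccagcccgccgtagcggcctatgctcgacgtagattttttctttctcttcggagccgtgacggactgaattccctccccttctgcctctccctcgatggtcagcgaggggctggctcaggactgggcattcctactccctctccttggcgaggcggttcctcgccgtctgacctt
PHLDA1: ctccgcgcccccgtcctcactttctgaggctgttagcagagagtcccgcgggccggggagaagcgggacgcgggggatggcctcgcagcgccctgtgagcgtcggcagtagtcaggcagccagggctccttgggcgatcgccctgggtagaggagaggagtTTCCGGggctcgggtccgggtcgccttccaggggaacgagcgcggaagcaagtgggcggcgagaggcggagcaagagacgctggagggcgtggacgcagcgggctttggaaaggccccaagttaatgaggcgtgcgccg
With bases counted from the start of transcription, CCGGAA began at -142 in this SPRY2 window and at -67 in 1 of the windows of SPRY1. In PHLDA1 its reverse complement, as shown, began at -89. These exact letters were not present in the other windows of SPRY1 and SPRY2 or in those of DUSP6, SPRY4, and SPRED1. Shorter or variant ETS sites were not searched. Of all 35116 windows, 17.2% held these letters, and 20.1% of 27305 genes had them in at least 1 window. The AP-1 element TGACTCA (4.95% of windows), the cyclic AMP element TGACGTCA (1.85%), and the serum response CArG box (1.29%) matched none of the 9 windows. A match or its absence describes letters in a window and says nothing of whether a factor binds there.

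The DUSP genes of the group encode dual-specificity phosphatases. DUSP4 (Gene ID 1846; chr8:29333062-29350684, minus strand; GRCh38 here and below) makes a nuclear phosphatase of ERK, JNK, and p38. Its counts were 27316 in the control and 16800 in the si-MALAT1 library of H460, 20 and 19 for H1299, and 7004 and 4352 for A549. The gene was thus abundant in H460 and A549 and close to undetected in H1299, with no overlap between the cell lines. The log2 fold change after si-MALAT1 was -0.62 in H460 (95% interval from counting error -0.65 to -0.59) and -0.83 in A549 (-0.89 to -0.78). In H1299 it was 0.05 with an interval of -0.93 to 1.04, so no direction could be read there at 20 reads. Averaged over the cell lines, the change was -0.47 ± 0.46 (SD, n = 3). The paired edgeR test gave an adjusted p of 0.170 and DESeq2 0.0212, and the other edgeR fits gave 0.139 without H1299 to 1 without the cell line as a block.

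DUSP5 (Gene ID 1847; chr10:110497907-110511533, plus strand) makes a nuclear phosphatase that acts on ERK with little activity on the other MAP kinases. Its counts were 4387 and 2608 for H460, 2970 and 4444 for H1299, and 5851 and 2602 for A549, with the control given first. It was the member whose response differed most in size between cell lines, at log2 fold changes of -0.67 (-0.74 to -0.60) in H460, 0.71 (0.65 to 0.78) in H1299, and -1.31 (-1.38 to -1.25) in A549. The mean was -0.42 ± 1.03 (SD, n = 3), and the adjusted p was 0.631 in edgeR. Reads from the pseudogene DUSP5P1 were counted apart, at 73 to 338 per library, and DUSP5P2 had none.

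DUSP6 (Gene ID 1848; chr12:89347235-89352501, minus strand) makes the cytoplasmic phosphatase of ERK. Its counts were 14244 and 8135 for H460, 7860 and 9145 for H1299, and 2172 and 2068 for A549. The si-MALAT1 library was well below its control in H460, above it in H1299, and within a small distance of it in A549. The log2 fold changes were -0.73 (-0.77 to -0.69), 0.35 (0.31 to 0.39), and -0.22 (-0.30 to -0.13), with a mean of -0.20 ± 0.54 (SD, n = 3) and an edgeR adjusted p of 0.688. None of the DUSP genes passed the paired edgeR test.

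The Sprouty proteins bind adaptors and RAF and dampen signals from growth factor receptors. SPRY1 (Gene ID 10252; chr4:123396795-123403760, plus strand) was scarce in H460, with counts of 42 and 79 for H460, 923 and 1251 for H1299, and 161 and 251 for A549. The si-MALAT1 library was above its control in each cell line. The log2 fold changes were 0.97 (0.44 to 1.57), 0.57 (0.45 to 0.69), and 0.49 (0.20 to 0.79), and none of these intervals reached 0. They averaged 0.68 ± 0.26 (SD, n = 3), and the adjusted p was 0.207 in edgeR and 0.0732 in DESeq2.

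SPRY2 (Gene ID 10253; chr13:80335976-80341126, minus strand) had counts of 1608 and 907 for H460, 7194 and 7739 for H1299, and 765 and 497 for A549. SPRY4 (Gene ID 81848; chr5:142310430-142325021, minus strand) had 1375 and 752, 7508 and 10274, and 357 and 321. Both were lower after si-MALAT1 in H460 and A549 and higher in H1299. For SPRY2 the log2 fold changes were -0.74 (-0.86 to -0.63), 0.24 (0.19 to 0.28), and -0.77 (-0.93 to -0.60), with an adjusted p of 0.427 in edgeR. For SPRY4 they were -0.79 (-0.92 to -0.66), 0.58 (0.54 to 0.63), and -0.30 (-0.52 to -0.08), with an adjusted p of 0.815. The long non-coding RNA SPRY4-IT1 overlaps the exons of SPRY4 on the same strand and had 1 to 7 reads per library.

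SPRED1 (Gene ID 161742; chr15:38252087-38357249, plus strand) makes a protein that brings the RAS GTPase-activating protein neurofibromin to the membrane. Its counts were 6123 and 6295 for H460, 5139 and 6524 for H1299, and 2365 and 3015 for A549. It was the steadiest member in size of response, at 0.12 (0.07 to 0.17), 0.48 (0.42 to 0.53), and 0.21 (0.13 to 0.28), all above 0. Averaged over the cell lines it was 0.27 ± 0.18 (SD, n = 3), and edgeR gave an adjusted p of 0.396. The non-coding gene LOC107984760 overlaps SPRED1 on the opposite strand outside its exons and had 0 to 9 reads.

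ETV4 and ETV5 are ETS transcription factors of the PEA3 group, made in response to ERK and acting downstream of it. ETV4 (Gene ID 2118; chr17:43527843-43546340, minus strand) had counts of 9548 and 5441 for H460, 1190 and 699 for H1299, and 2286 and 1188 for A549. The si-MALAT1 library was below its control in each cell line, and by at least 1.5-fold in each, which held for no other member. The share of all genes for which this held was not computed. At any size, 18.8% of all genes were lower in the 3 cell lines. In H1299 the interval spans the 1.5-fold threshold, an absolute log2 fold change of 0.585. The log2 fold changes were -0.73 (-0.78 to -0.68), -0.64 (-0.77 to -0.50), and -1.09 (-1.19 to -0.99), which averaged -0.82 ± 0.24 (SD, n = 3). The edgeR test gave 0.0819 and DESeq2 9.48e-06 as adjusted p, and over the edgeR alternatives it ran from 0.0667 without H460 to 1 without the cell line as a block. Exons of DHX8, an RNA helicase gene on the opposite strand, overlap those of ETV4. DHX8 had 7589 and 6474 reads for H460, 3755 and 3967 for H1299, and 4117 and 5096 for A549. Since no source used here says whether counting used the strand, reads of the shared stretch cannot be told apart.

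ETV5 (Gene ID 2119; chr3:186046314-186109089, minus strand), the close relative of ETV4, had counts of 3389 and 2993 for H460, 7074 and 7596 for H1299, and 1743 and 1561 for A549. Its log2 fold changes were small, at -0.10 (-0.17 to -0.03), 0.23 (0.19 to 0.28), and -0.30 (-0.40 to -0.20), with an adjusted p of 0.853 in edgeR. PHLDA1 (Gene ID 22822; chr12:76025447-76031776, minus strand) makes a pleckstrin homology-like protein induced by growth factors. It had counts of 12678 and 5447 for H460, 25621 and 20816 for H1299, and 4341 and 3472 for A549. Like ETV4 it was below its control in each cell line, though by unequal amounts, at -1.14 (-1.18 to -1.09), -0.17 (-0.20 to -0.14), and -0.47 (-0.53 to -0.40). The average was -0.59 ± 0.50 (SD, n = 3). The edgeR test gave an adjusted p of 0.248 and DESeq2 0.0543.

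**Figure D1:**
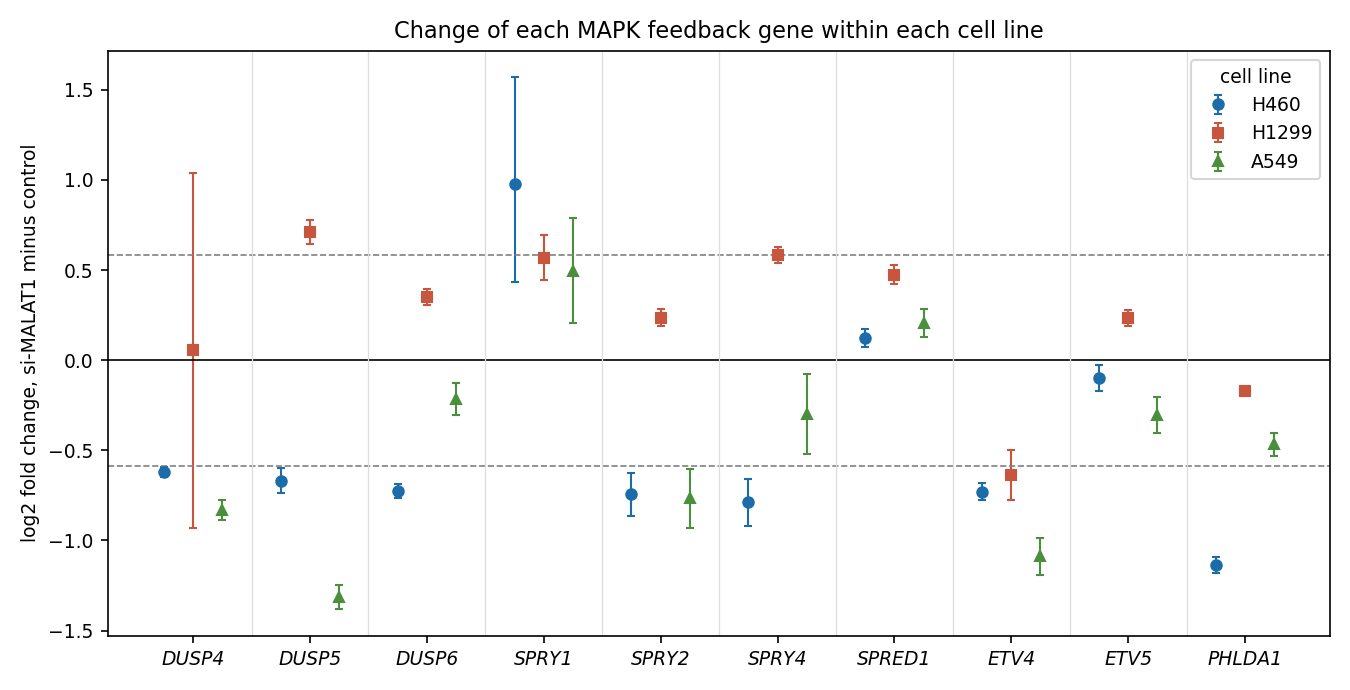
Log2 fold change after si-MALAT1 (vertical axis, RLE-scaled count plus 1) of each MAPK feedback gene in H460 (circles), H1299 (squares), and A549 (triangles), with bars for 95% intervals from counting error and dashed lines at 1.5-fold. ETV4 lies below 0 and past 1.5-fold in the 3 cell lines, though its H1299 interval crosses the dashed line. The share of all genes past 1.5-fold in the 3 cell lines was not computed. SPRY1 and SPRED1 lie above 0 in each cell line, and DUSP5 runs from -1.31 in A549 to 0.71 in H1299.

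None of the 10 genes was called by the paired edgeR test at an adjusted p under 0.05, as 0.00523% of 19122 genes were, that is MALAT1 alone. At an unadjusted p under 0.05 there were 3 members that were lower (ETV4 at 0.000570, DUSP4 at 0.00709, and PHLDA1 at 0.0210), where 7.59% of all genes were lower. SPRY1 was the 1 member that was higher, at 0.0131, where 7.38% of all genes were. DESeq2 called 2 members lower, DUSP4 and ETV4, against 4.25% of the 13561 genes it gave an adjusted p, and 0 higher, against 4.15%.

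Within the cell lines, 7 of the 10 genes were lower by at least 1.5-fold in H460, where 10.3% of 17834 genes with reads in all libraries were. These were DUSP4, DUSP5, DUSP6, SPRY2, SPRY4, ETV4, and PHLDA1. SPRY1 was higher by that much, as were 9.5% of all genes. In A549 there were 4 members that were lower (DUSP4, DUSP5, SPRY2, and ETV4; 11.4% of all genes) and 0 that were higher (11.5% of all genes). In H1299 there was 1 lower, ETV4 (11.4% of all genes), and 1 higher, DUSP5 (11.7% of all genes), with SPRY4 at 0.583 just inside the threshold of 0.585.

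Counted at any size, 8 members were lower in H460 (48.1% of all genes), 8 were higher in H1299 (51.9%), and 8 were lower in A549 (49.3%). The same 6 genes, DUSP4, DUSP5, DUSP6, SPRY2, SPRY4, and ETV5, were lower in H460 and A549 and higher in H1299, a pattern held by 11.2% of all genes, and for DUSP4 the H1299 value rests on 20 and 19 reads. Lower in the 3 cell lines were 2 members, ETV4 and PHLDA1 (18.8% of all genes), and higher in the 3 were SPRY1 and SPRED1, also 2 (21.4% of all genes). The median log2 fold change of the 10 genes was -0.70 for H460, 0.29 for H1299, and -0.39 for A549, beside 0.02, 0.02, and 0.01 over all genes. Whether the response differs between the cell lines was not tested, since each has 1 library per condition.

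The level of the group as a whole can be read in TPM, which the authors scaled for transcript length. The summed TPM of the 10 genes was 333.5 in the control and 192.7 in the si-MALAT1 library of H460, 269.3 and 331.3 for H1299, and 203.4 and 118.5 for A549. The sum was thus lower after si-MALAT1 in H460 and A549 and higher in H1299. The genes that made up most of it differed: DUSP4, ETV4, and DUSP6 led in the H460 control (81.3, 73.1, and 67.5 TPM), PHLDA1, SPRY2, and DUSP6 in the H1299 control (75.1, 53.6, and 37.7 TPM), and DUSP5, DUSP4, and ETV4 in the A549 control (67.6, 35.1, and 28.3 TPM).

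**Figure D2:**
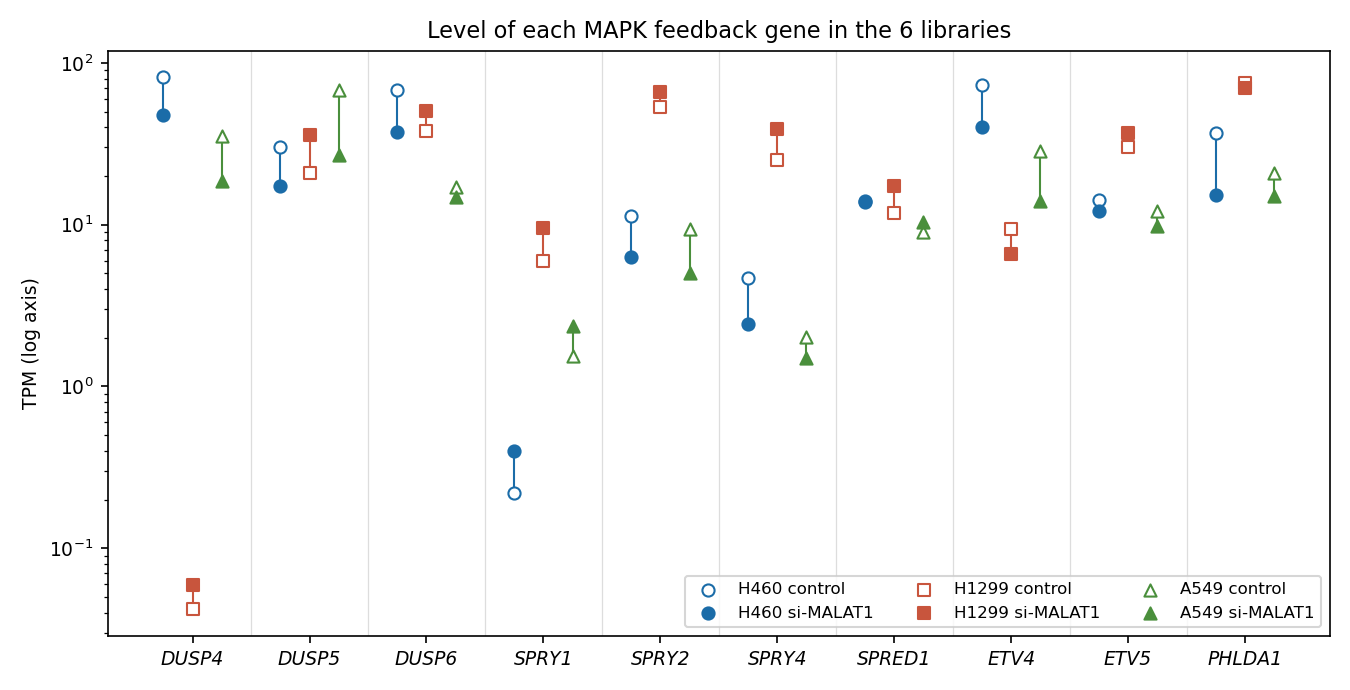
TPM (vertical log axis) of each MAPK feedback gene in the 6 libraries, open symbols for controls and filled symbols for si-MALAT1, with a line joining the pair of a cell line. DUSP4 sits at 18.7 to 81.3 TPM in H460 and A549 and at 0.0421 and 0.0590 TPM in H1299, while SPRED1 stays between 9.03 and 17.4 TPM in every library.

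Most of the members differed widely between the cell lines. In TPM, DUSP4 averaged 64.6 in H460, 26.9 in A549, and 0.0506 in H1299. ETV4 followed the same order, at 56.5, 21.2, and 7.95. These were the members that were higher in both H460 and A549 than in H1299, and the paired fit, with the cell line and the treatment as terms, gave log2 differences of 10.33 and 8.77 for DUSP4 (edgeR adjusted p 1.3e-05 and 2.4e-05) and of 3.19 and 1.46 for ETV4 (4.7e-05 and 0.000808).

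The Sprouty genes ran the other way. SPRY2 averaged 59.7 TPM in H1299, 8.84 in H460, and 7.22 in A549. SPRY4 averaged 32.1, 3.56, and 1.77 in the same order, and SPRY1 7.77 in H1299, 1.96 in A549, and 0.308 in H460. Each was lower in H460 than in H1299, with log2 differences of -2.44 for SPRY2, -2.91 for SPRY4, and -3.99 for SPRY1 (edgeR adjusted p 0.000767, 0.000779, and 8.5e-05). Each was also lower in A549 than in H1299, at -3.02, -4.14, and -1.81 (edgeR adjusted p 0.000465, 0.000316, and 0.00125). SPRY2 did not pass between H460 and A549, whose libraries overlapped, at -0.57 with an adjusted p of 0.143.

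PHLDA1 averaged 72.5 TPM in H1299, 26.01 in H460, and 18.0 in A549, and ETV5 33.5, 13.2, and 11.01. PHLDA1 was lower than in H1299 at log2 differences of -1.25 for H460 and -1.98 for A549 (edgeR adjusted p 0.00639 and 0.00131), and ETV5 at -1.55 for A549 (0.000793). In H460 the difference of ETV5 was -0.99996, just inside the threshold of 1, with an adjusted p of 0.00341. DUSP6 averaged 52.3 TPM in H460, 44.0 in H1299, and 15.9 in A549. It was lower in A549 than in either other line, at -1.42 against H1299 and -1.97 against H460 (edgeR adjusted p 0.00546 and 0.00228). Its H460 and H1299 levels did not pass, at 0.55 with an adjusted p of 0.116.

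DUSP5 and SPRED1 differed least. DUSP5 averaged 47.3 TPM in A549, 28.2 in H1299, and 23.9 in H460, but the control and si-MALAT1 values of the cell lines overlapped in every pair, and the adjusted p was 0.264 or more in edgeR. SPRED1 averaged 14.6 TPM in H1299, 13.9 in H460, and 9.67 in A549. Its largest difference, A549 minus H460, was -0.82 (edgeR adjusted p 0.00687), inside the threshold of 1.

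By the rule of an edgeR adjusted p under 0.05 and a log2 difference of at least 1, H460 was higher than H1299 in 2 members (17.6% of all genes) and lower in 4 (17.5%). A549 was higher than H1299 in 2 (15.7%) and lower in 6 (15.5%). A549 was higher than H460 in 1, SPRY1 (11.9%), and lower in 4, DUSP4, DUSP6, SPRY4, and ETV4 (12.2%). These contrasts share libraries, and the pair of libraries within a cell line differed in treatment, so the test reads the spread that the cell line and the treatment terms leave. By the same rule, the call of SPRY4 in A549 against H460 (-1.23, adjusted p 0.0269) was lost without the H460 control (adjusted p 0.132), the A549 control (0.125), or the A549 si-MALAT1 library (0.143). That of DUSP6 in A549 against H1299 was lost without the A549 si-MALAT1 library (adjusted p 0.0502) or the H1299 si-MALAT1 library (log2 difference -0.99). PHLDA1 was no longer called in H460 against H1299 without the H460 (-0.84) or the H1299 si-MALAT1 library (-0.94). Calls were gained for ETV5 in H460 against H1299 without the H460 control (-1.03, adjusted p 0.0114) or the H1299 control (-1.22, adjusted p 0.00314). They were also gained for DUSP5 in A549 against H1299 without the H1299 si-MALAT1 library (1.56, adjusted p 0.00688) and for PHLDA1 in A549 against H460 without the H460 si-MALAT1 library (-1.12, adjusted p 0.00716). Leaving out 1 library at a time, 5 to 7 members were called between H460 and H1299, 7 to 8 between A549 and H1299, and 4 to 6 between A549 and H460.

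**Figure D3:**
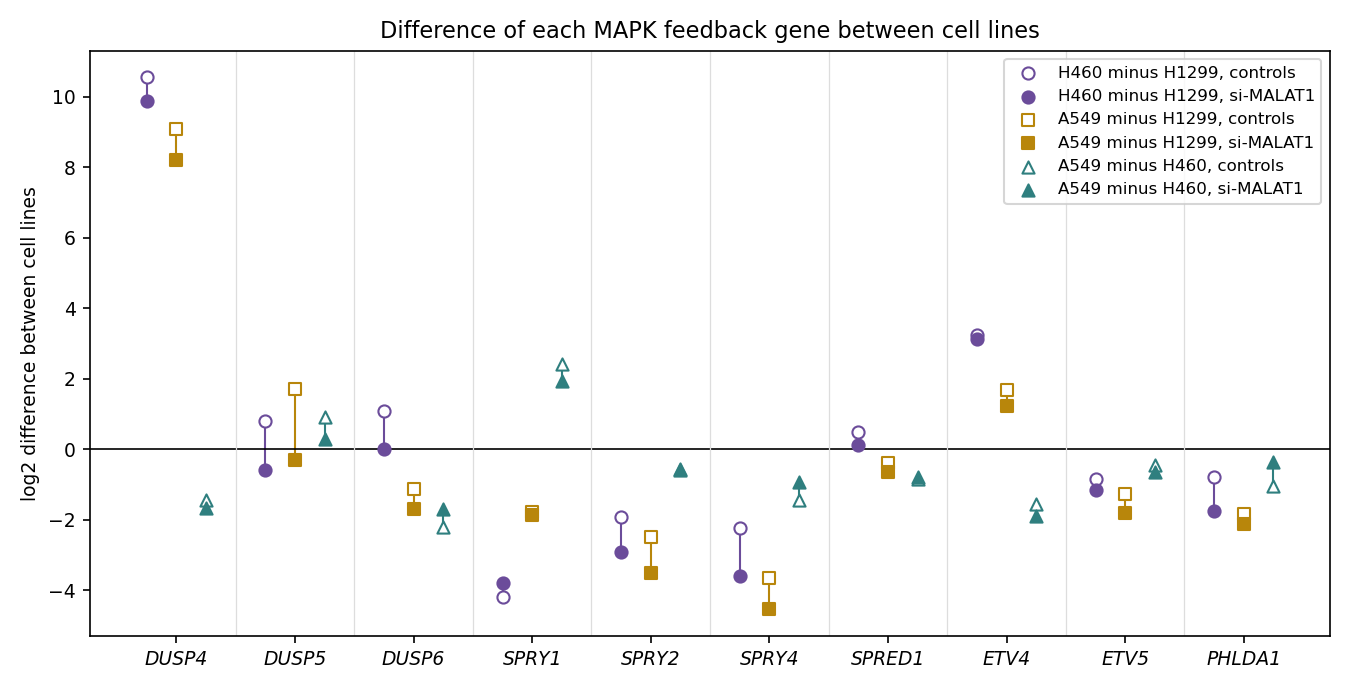
Log2 difference between cell lines (vertical axis) for each MAPK feedback gene, from the controls (open) and from the si-MALAT1 libraries (filled), for H460 minus H1299, A549 minus H1299, and A549 minus H460. DUSP4 and ETV4 lie above 0 against H1299 and the Sprouty genes below 0, in both conditions, while DUSP5 changes side between the conditions in both contrasts with H1299.

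The genes of the cascade itself were read from a list of 26, from receptors to ERK and its substrate kinases. None passed an adjusted p of 0.05 in edgeR, 5 were higher and 2 lower at an unadjusted p under 0.05, and DESeq2 called 3 higher and 2 lower. Over all genes these shares were 7.38% higher and 7.59% lower in edgeR and 4.15% and 4.25% in DESeq2, and they serve for the lists that follow. The medians of the list were -0.01 for H460, 0.15 for H1299, and -0.08 for A549. The list's genes with the smallest unadjusted p were RRAS2, which encodes a RAS-related GTPase, PTPN11, which encodes the phosphatase SHP2 that carries receptor signals to RAS, and NRAS. RRAS2 had log2 fold changes of -1.13, -1.42, and -1.78 in H460, H1299, and A549 (edgeR adjusted p 0.0734). PTPN11 had -0.80, -1.05, and -1.53 (0.0751), and NRAS had 0.68, 0.86, and 0.61 (0.0866).

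A further list held 21 negative regulators of ERK signalling outside the 10 genes. None passed in edgeR or DESeq2, 3 were higher and 1 was lower at an unadjusted p under 0.05, and the medians were 0.03, 0.46, and 0.10. In H1299, 8 of the 21 were higher by at least 1.5-fold and 1 was lower (11.7% and 11.4% of all genes). The counts were 1 and 3 in H460 (9.5% and 10.3%) and 2 and 0 in A549 (11.5% and 11.4%). IL17RD, which encodes the receptor-bound inhibitor SEF, had 0.33, 1.00, and 0.44 (edgeR adjusted p 0.227). The RAS GTPase-activating protein gene RASA2 had 0.08, 0.86, and 0.40 (0.311). DUSP2, a phosphatase gene, had 1.42, 0.22, and 2.05 (0.261), the last from 4 and 21 reads.

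Of 25 other genes known to be switched on by ERK, 24 were tested in edgeR and none passed at an adjusted p of 0.05. At an unadjusted p under 0.05, 4 were higher and 6 lower (7.38% and 7.59% of all genes), and DESeq2 called 4 higher and 3 lower (4.15% and 4.25%). Among the 23 with reads in all libraries, 4 were higher and 6 lower by at least 1.5-fold for H460 (9.5% and 10.3% of all genes). The counts were 9 and 2 for H1299 (11.7% and 11.4%) and 5 and 8 for A549 (11.5% and 11.4%). The medians were -0.18 for H460, 0.26 for H1299, and -0.18 for A549. FOS, an immediate early gene of the AP-1 factor, had 1287 and 9352 reads for H460, 1276 and 6990 for H1299, and 7677 and 18442 for A549, or log2 fold changes of 2.94, 2.58, and 1.12 (edgeR adjusted p 0.0866). EGR1, an immediate early zinc finger gene, had 0.98, 1.46, and 1.86 (0.0762), and the receptor gene EPHA2 had -0.90, -0.80, and -1.45 (0.0784). FOS and EGR1 were thus higher also in H460 and A549, where 8 of the 10 feedback genes were lower. EPHA2 was lower in both, and the median of this list was -0.18 in each. Of this list, the genes at 0 in some library were EGR3, with 0 to 13 reads, and EREG, with 0 to 7795.

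**Figure D4:**
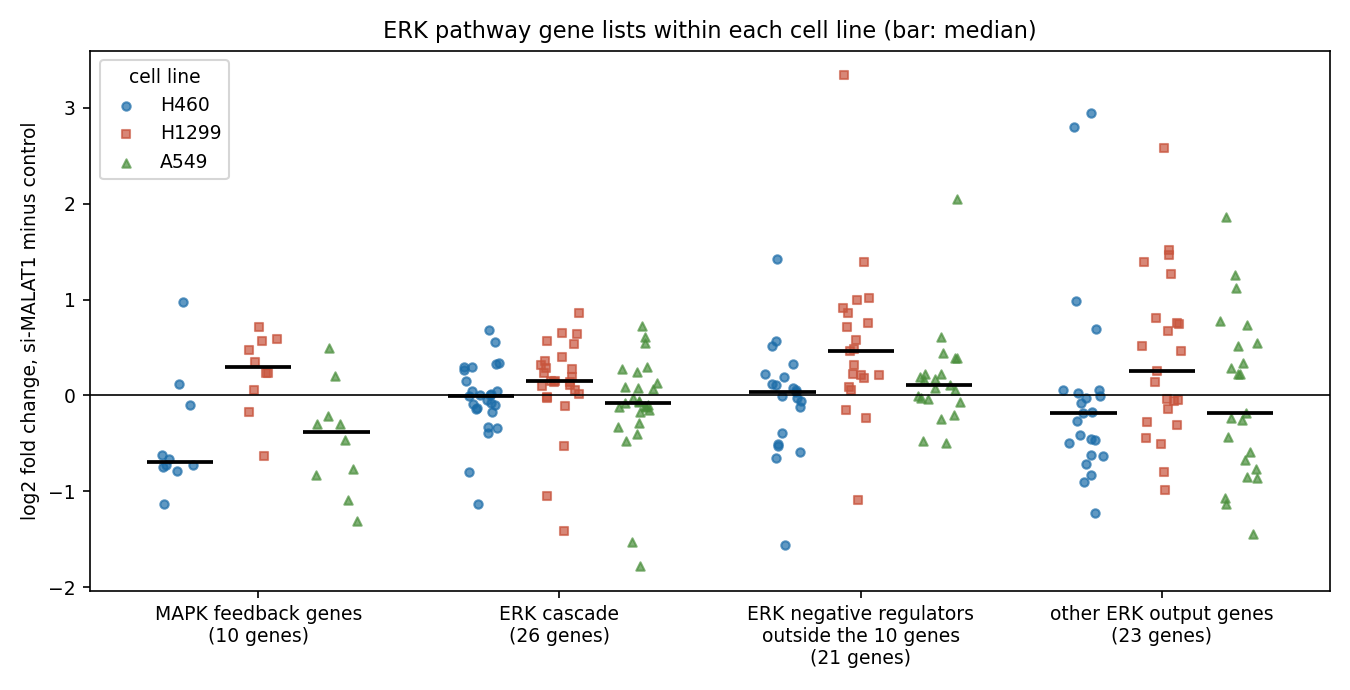
Log2 fold change after si-MALAT1 (vertical axis) of the MAPK feedback genes and of the ERK cascade, negative regulator, and other ERK output lists, with 1 point per gene for H460 (circles), H1299 (squares), and A549 (triangles) and a bar at each median. The feedback genes have medians of -0.70, 0.29, and -0.39, and the medians of the other lists run from -0.18 to 0.46.

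Near relatives of the members showed levels of their own. ETV1, the remaining PEA3 factor, had counts of 11651 and 10442 for H460, 4147 and 3429 for H1299, and 492 and 634 for A549, so it was most abundant in H460 as ETV4 was. SPRED2 had 1757 and 1105 for H460, 1700 and 2548 for H1299, and 624 and 716 for A549. Its log2 fold changes were -0.59, 0.71, and 0.05. SPRED3 was most abundant in H1299, with 1090 and 1150 reads against 14 to 81 elsewhere, and SPRY3 in H460, with 454 and 491 against 11 to 82. The cytoplasmic ERK phosphatase genes DUSP7 and DUSP9 were scarce, at 66 to 402 and 41 to 350 reads, and PHLDA2 had 38 to 296. PHLDA3 had 6 and 17 reads in H1299 against 986 to 2018 in the other lines. Responses of these relatives differed in direction. In H460, H1299, and A549, the log2 fold changes were -0.08, -0.14, and 0.22 for ETV1. They were 0.56, -1.09, and 0.39 for DUSP9, and -0.62, -0.28, and -0.77 for PHLDA2. DUSP7 had -0.51, 0.18, and 0.17, and SPRED3 had -1.57, 0.21, and 0.19. SPRY3 had 0.19, 0.92, and 0.61, and PHLDA3 had 0.22, 1.45, and 0.01. None of these 8 genes passed the paired edgeR test, whose smallest adjusted p among them was 0.394.

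Likeness between genes was measured as the root-mean-square difference of log2 CPM profiles over the 6 libraries, each centred on its own mean. Among the members, ETV5 and PHLDA1 were closest (0.369), followed by SPRY2 and SPRY4 (0.481), and DUSP4 was the farthest from the mean profile of the group (4.51). The genes of the table closest to that mean profile, of 15903 compared, were FEM1C (0.0573), CNOT6 (0.0774), DCP1A (0.0873), AFF4 (0.0880), and TAOK3 (0.0903). SPRED1 was the closest member, at 0.274, farther off than each of those genes. DUSP4 weighed heavily on the mean profile. Its centred values were 4.27 in the H460 control and -6.35 in the H1299 control, where the mean was 0.54 and -0.10. Nearness to this mean therefore need not mean likeness to the other members.

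Earlier results of these data pointed to the words TGAATCA and ATGAATC in 3' UTRs of genes lower after si-MALAT1, so their presence in the members is no independent observation. Either word occurred in 5 of the 10 genes, DUSP4, DUSP6, SPRY2, SPRY4, and ETV4, and in 18.7% of 12238 genes with a 3' UTR and a mean count of at least 50. The sites of 4 of them are shown with 8 bases on either side and the word in capitals, at chr12:89348729-89348751 (DUSP6), chr13:80336282-80336304 (SPRY2), chr5:142310780-142310802 (SPRY4), and chr17:43528450-43528472 (ETV4), all on the minus strand.
DUSP6 site: tttgatctTGAATCActtgacag
SPRY2 site: gaagaatgTGAATCAatcagtat
SPRY4 site: agtcgatgATGAATCttgcgttg
ETV4 site: acatataaATGAATCtggtgttg
DUSP4 holds ATGAATC, and its site is not shown. The 3' UTRs that hold a word were 673 (ETV4) to 3964 bases (DUSP4) long, and those without were 1107 (DUSP5) to 5585 bases (SPRED1). The members had longer 3' UTRs, with a median of 2172 bases, than the 12238 genes, with a median of 1451, and the part of length in the share of genes with a word was not tested. Of the 5 genes with a word, each was lower after si-MALAT1 in H460 and in A549, and ETV4 was also lower in H1299. Of the 5 without, DUSP5, ETV5, and PHLDA1 were lower in H460 and A549, while SPRY1 and SPRED1 were higher in every cell line. Of all genes, 18.8% were lower in the 3 cell lines, and 11.2% were lower in H460 and A549 and higher in H1299. The words came from genes lower after si-MALAT1 in these same data, so the directions are no test of the words.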

How the data were processed

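Groups and cell lines were taken from the sample labels. The authors trimmed the reads (Trimmomatic), aligned them to GRCh38/hg38 with HISAT2 2.1.0, and estimated abundances with StringTie (1.3.4b in the submitters' processing notes, another version in the methods), and the deposited table holds read counts, FPKM, and TPM. FPKM was not used, and the notes also list hg19. The deposited counts are whole numbers and not normalized, and the deposited TPM is scaled for length and depth by the authors. Another 18 columns of samples outside these labels were not used. Libraries were stranded and rRNA-depleted.

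Log2 fold changes within a cell line used the RLE-scaled count plus 1, for genes with a read in all 6 libraries. Intervals are exact 95% Clopper-Pearson intervals and cover counting error only. Pairs were tested in edgeR 4.0.16 by quasi-likelihood (TMM, filterByExpr, treatment and cell line as terms, Benjamini-Hochberg over all genes tested, 2 residual degrees of freedom), run in R 4.3.3. The test was also run on simulated data, whose treatment changes had a fixed size and were shared by the cell lines. Treatment changes that differ between cell lines were not simulated. The pairs come from the cell line label. DESeq2 1.42.0 was the alternative, beside other scalings, filters, and pseudocounts and leaving out libraries. Nothing says that the pair of libraries of a cell line came from separate experiments, so p-values measure the spread between these libraries.

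The members and gene lists were chosen with earlier results of these data known. Named genes are the members, MALAT1, the 3 genes of each list with the smallest unadjusted p and a mean count of at least 50, relatives of the members, overlapping genes, and the 5 genes of nearest profile. EGR3, EREG, and the pseudogenes were named after their values were seen. Gene positions are from the annotation deposited with the data, and Python 3.11.15 computed the sequence searches. A further marker gene is not reported here.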

Additional observations from a re-analysis of the deposited data

Results flagged for a closer look

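For 5 of the 10 MAPK feedback genes the response to si-MALAT1 ran in opposite directions in the cell lines, with counting intervals on either side of 0, as in 24.6% of the 17834 genes with reads in all libraries. Whether a counting interval clears 0 depends on read depth, and the 24.6% covers genes of every depth. At any size, 6 members had mixed signs, as had 59.8% of all genes. The difference was not tested, because each cell line has 1 library per condition. The log2 fold change of DUSP5 was 2.03 higher in H1299 than in A549. That of DUSP6 was 1.08 higher in H1299 than in H460, and that of SPRY4 was 1.37 higher. SPRY2 was 1.00 higher and ETV5 was 0.54 higher in H1299 than in A549.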

How the results depend on the processing

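With edgeR, 0 of the 10 genes were called after si-MALAT1 with RLE size factors, without the filter on low counts, without the cell line as a block, or without any 1 of the cell lines, and DESeq2 called 2. Without the replicate block, SPRY4 (0.37) and ETV5 (0.028) changed sign. Without 1 cell line at a time the paired log2 fold change ran from -0.997 to 0.0071 for DUSP5 (highest without A549), from -0.48 to 0.056 for DUSP6 (highest without H460), from -0.56 to 0.16 for SPRY4 (highest without H460), and from -0.21 to 0.053 for ETV5 (highest without A549). On the log2(TPM + 1) scale, 0 members were higher by 1.5-fold in H460 (1.32% of all genes), with SPRY1 at 0.20. In H1299, 0 were lower (4.36% of all genes), with ETV4 at -0.45. There, 3 were higher (5.78% of all genes), DUSP5 at 0.75, SPRY1 at 0.61, and SPRY4 at 0.63.

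The DUSP5 difference between H460 and H1299 was 0.00 and changed sign with DESeq2 (-0.0057), RLE size factors (-0.0038), and no filter (-0.0094). Without 1 library at a time it ran from -0.75 (without the H1299 control) to 0.96, that between A549 and H1299 from -0.15 to 1.56, and that between A549 and H460 from -0.090 to 1.23. Counts of members called between cell lines stayed within 1.5 times in all 30 alternatives. Of 300 differences of single members 285 kept their call or lack of one, 8 lost it, and 7 gained it. With all libraries kept, ETV5 in H460 against H1299 gained a call with DESeq2, RLE size factors, and no filter on low counts. SPRY4 in A549 against H460 lost its call with no filter (edgeR adjusted p 0.0516). The causes were not tested. Depth limits DUSP4 in H1299 and SPRY1 in H460 most, at 20 and 42 reads in the controls.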
